A study of Mus musculus with 24 samples.

Results

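The genes described here are 31 that encode synaptic vesicle proteins and the machinery of neurotransmitter release, chosen by gene symbol from the 45777 genes of a deposited count table. All 31 symbols were found, and all 31 passed the filter on low counts that left 18380 genes for testing. They were taken in 4 role groups: 13 vesicle proteins, 5 synaptotagmins, 7 SNAREs and SNARE regulators, and 6 active zone proteins. The prefrontal cortex of wild-type adult male mice was measured by RNA-seq in 24 libraries, 6 in each of 4 groups. Control mice had no treatment. MS mice had been through maternal separation, in which young pups are taken from their mother for periods of time. Control_EC12 mice received EC-12, a preparation of heat-killed Enterococcus faecalis, for 5 weeks, and MS_EC12 mice had both maternal separation and EC-12. The study's title names the reversal of a social deficit brought on by separation as its question. No label says that each library is from its own mouse. The p-values therefore set group differences against the spread between these libraries, which may be partly technical, and may not extend to other mice. The strain and the exact age are not stated in the labels.

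At a presynaptic terminal, neurotransmitter is stored in small vesicles that dock and are primed at a specialised patch of membrane, the active zone. Fusion is driven by SNARE proteins, which zip together from the vesicle side (the VAMPs) and the plasma membrane side (syntaxin and SNAP-25), and calcium entering with an action potential triggers it through synaptotagmins. Most cortical neurons use this core machinery, so in a whole-tissue sample its transcripts come mainly from neurons, and fewer neurons cannot be told apart from less RNA per neuron.

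The libraries differed in how gene level depended on GC content, the share of the bases G and C in the transcript, and the release genes differ widely in that content. The GC content of the longest protein-coding transcript ran from 40.6% for Synpr to 59.8% for Bsn, with a median of 51.6% over the 31 genes and of 50.1% over the tested genes. The central 90 bases of the coding sequence are shown for 6 genes that act together in fusion, because the results below divide along this property. They are read 5′ to 3′ from the GRCm38 genome with GENCODE M21 gene models, with every G and C in capitals and every A and T in lower case. The first 3 belong to genes with a log2 fold change below 0 in MS_EC12 against Control over the 24 libraries, of which Syt1 and Rims2 were called and Snap25 was not, and the last 3 to genes with one above 0, none of them called.
Syt1: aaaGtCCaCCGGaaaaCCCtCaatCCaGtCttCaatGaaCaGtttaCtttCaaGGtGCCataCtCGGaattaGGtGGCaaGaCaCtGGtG
Rims2: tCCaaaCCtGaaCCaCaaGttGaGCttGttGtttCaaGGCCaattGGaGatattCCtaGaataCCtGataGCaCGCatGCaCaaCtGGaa
Snap25: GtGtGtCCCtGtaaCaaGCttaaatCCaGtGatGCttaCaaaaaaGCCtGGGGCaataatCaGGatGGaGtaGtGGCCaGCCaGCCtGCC
Vamp2: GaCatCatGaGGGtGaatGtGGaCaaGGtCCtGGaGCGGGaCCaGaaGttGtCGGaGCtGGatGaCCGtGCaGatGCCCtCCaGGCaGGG
Stx1a: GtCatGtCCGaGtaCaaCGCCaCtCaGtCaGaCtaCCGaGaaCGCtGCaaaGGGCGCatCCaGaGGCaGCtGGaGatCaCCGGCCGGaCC
Cplx1: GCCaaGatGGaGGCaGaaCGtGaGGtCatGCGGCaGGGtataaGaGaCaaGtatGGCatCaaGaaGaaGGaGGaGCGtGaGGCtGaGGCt

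Capitals made up 45.6% of the Syt1 stretch, 43.3% of Rims2 and 50.0% of Snap25, against 60.0% of Vamp2, 61.1% of Stx1a and 54.4% of Cplx1. These 6 were picked to show the contrast, and the same stretch does not follow it in every member: it held 44.4% in Rab3a and 47.8% in Syn1, which stood above 0, and 58.9% in both Cplx2 and Syt11, which stood below 0. The coding sequences from which these stretches come span chr10:108500543-108691046 for Syt1, on the minus strand, and chr15:39198363-39681761 for Rims2, on the plus strand. They span chr2:136756130-136781140 for Snap25, chr11:69088626-69090663 for Vamp2 and chr5:135023581-135049901 for Stx1a, all on the plus strand, and chr5:108520132-108548536 for Cplx1 on the minus strand. Over the whole coding sequence the GC content was 49.9% in Syt1, 48.9% in Rims2 and 51.1% in Snap25, and 58.0% in Vamp2, 55.8% in Stx1a and 57.7% in Cplx1. The untranslated 3′ ends widened the gap for some of them: 41.4% in Syt1 and 37.4% in Snap25 against 58.8% in Stx1a and 54.3% in Cplx1.

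Total counts ran from 26250197 to 39252382 per library, and every one of the 31 genes had at least 152 reads in every library. The first principal component of all tested genes held 33.3% of the variance, and its size correlated at 0.99 over the 24 libraries with the GC slope, which is the slope of each library's log2 CPM (read count scaled for library size, relative to the gene's mean over all libraries) on GC content. The slope was above 0 in 7 libraries: MS replicate 3, Control_EC12 replicates 3 and 4, and MS_EC12 replicates 3, 4, 5 and 6. No Control library was among them, and only MS_EC12 replicates 1 and 2 of their group were below 0. Group means were −0.121 ± 0.0259 in Control, −0.103 ± 0.184 in MS, −0.0052 ± 0.241 in Control_EC12 and 0.229 ± 0.334 in MS_EC12 (SD, n = 6; the unit is log2 CPM for each 10 percentage points of GC). In exact 2-sided permutation tests the slope of MS_EC12 differed from that of MS at p = 0.0325 and from that of Control at p = 0.0606 (adjusted p = 0.152 for each over 5 comparisons). The main results below are also given in the 17 libraries of slope below 0, where MS_EC12 keeps 2 libraries. The groups still differ in slope there, in the other direction. Slopes were −0.149 to −0.0872 in Control, −0.205 to −0.157 in MS, and −0.167 and −0.169 in MS_EC12. In Control_EC12 they were −0.17 to −0.0984. The tissue label was checked against markers: 12 of 12 genes of excitatory cortical neurons were measured, with none at 0 in any library and a summed level of 4414 to 7164 CPM. Marker sums of tissue next to the cortex also varied, from 1118 to 2415 CPM for striatal projection neurons and from 145 to 672 CPM for the olfactory bulb. Choroid plexus markers summed to 713 CPM in MS_EC12 replicate 6 and to 13.5 to 76.2 CPM in the other libraries.

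**Figure D1:**
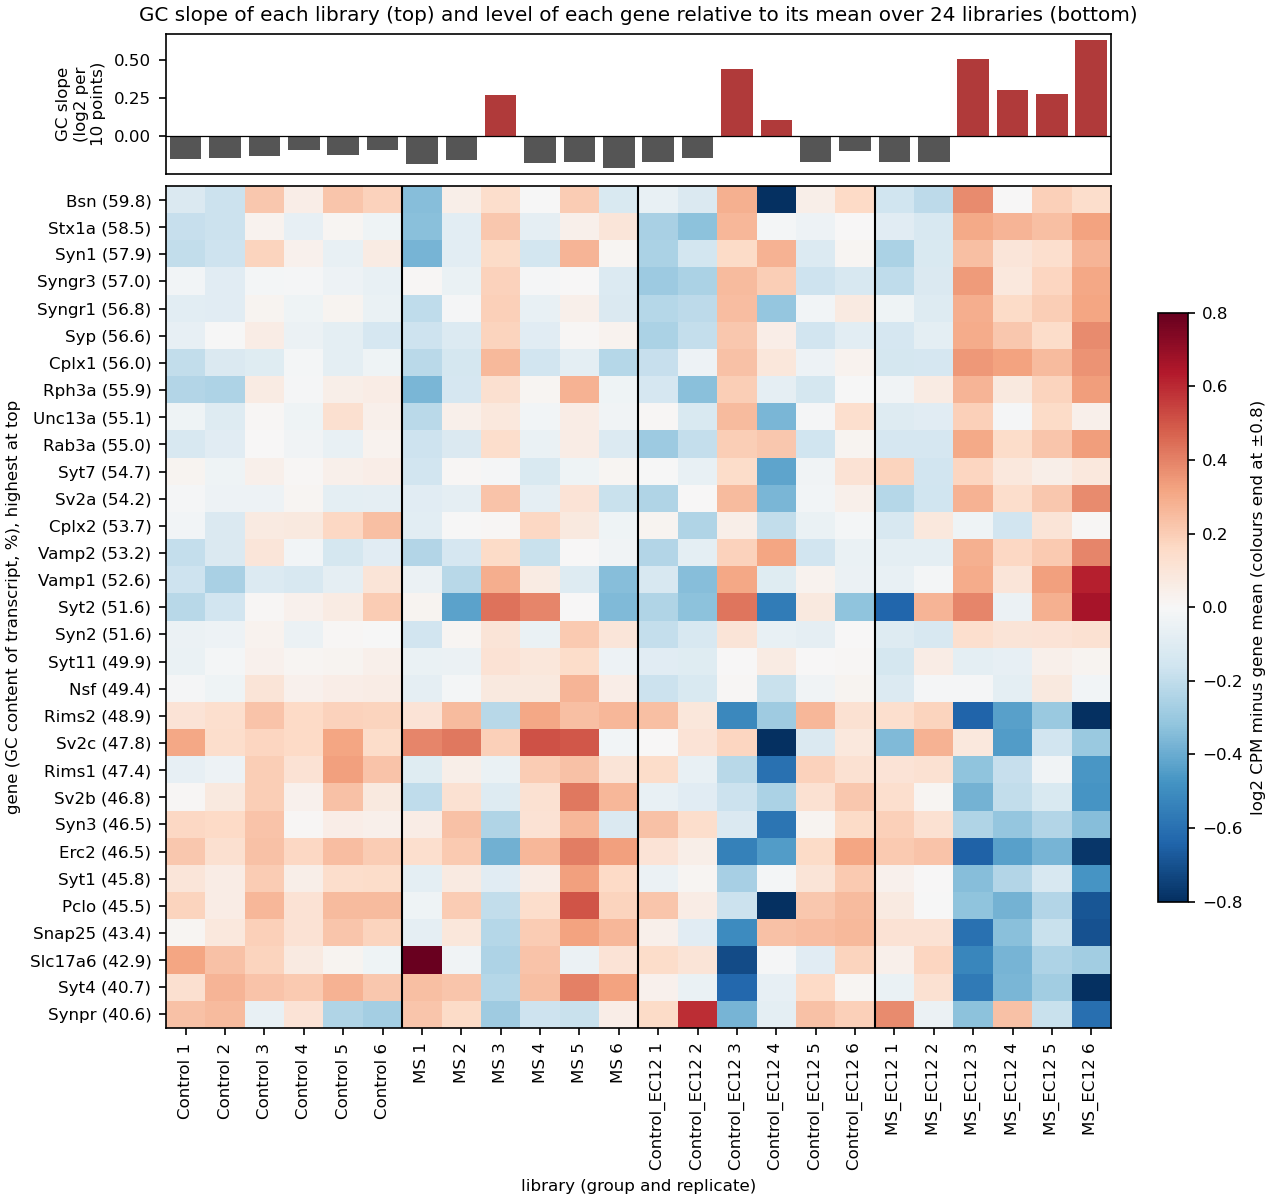
GC slope of each of the 24 libraries (bars, log2 units per 10 percentage points of GC, red above 0) and, below, the log2 CPM of each of the 31 genes relative to its mean over all libraries, with genes ordered by the GC content of their transcript. In the 7 libraries with red bars, the genes at the top tend to be high (red) and those at the bottom low (blue).

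Levels per transcript length were compared in Control as TPM, the deposited length-scaled values. Snap25, the plasma membrane SNARE that contributes a pair of helices to the fusion complex, stood highest at 2457 to 2706 TPM (median 2547). Syp, which encodes synaptophysin, an abundant tetraspan protein of the vesicle membrane, had 1177 to 1370.3 TPM and overlapped Vamp2, the main vesicle SNARE of the forebrain, at 1137 to 1316 TPM. The vesicle GTPase gene Rab3a (884 to 912 TPM) and Syt1 (825 to 898 TPM) came next and overlapped each other. The complexins, small proteins that bind the assembled SNARE complex, followed with 674 to 734 TPM for Cplx1 and 562 to 686 TPM for Cplx2, also overlapping. Nsf, the ATPase that takes used SNARE complexes apart, had 517 to 552 TPM, below every Cplx2 library. Snap25 exceeded Syp, Syt1 exceeded Cplx1, and Cplx2 exceeded Nsf in every library of the group, so these steps in the order were larger than the spread.

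Active zone genes all had medians of 38.9 to 117 TPM. Unc13a, which encodes Munc13-1, the factor that primes vesicles for fusion, had 107 to 124 TPM in Control. Rims1 (75.1 to 95.8 TPM), Bsn (66.7 to 86.2 TPM) and Erc2 (68.4 to 75.5 TPM) overlapped one another, and Rims2 (38.5 to 43.0 TPM) and Pclo (35.5 to 39.5 TPM) overlapped below them. The lowest 4 genes were Syt2 (16.2 to 20.1 TPM), Sv2c (16.6 to 20.2 TPM), Syn3 (11.3 to 13.6 TPM) and Slc17a6 (9.04 to 12.5 TPM). Slc17a6 encodes the vesicular glutamate transporter VGLUT2, used mainly by subcortical neurons, and made up 1.04 ± 0.151% of its summed TPM with the cortical transporter gene Slc17a7 (SD, n = 6).

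**Figure D2:**
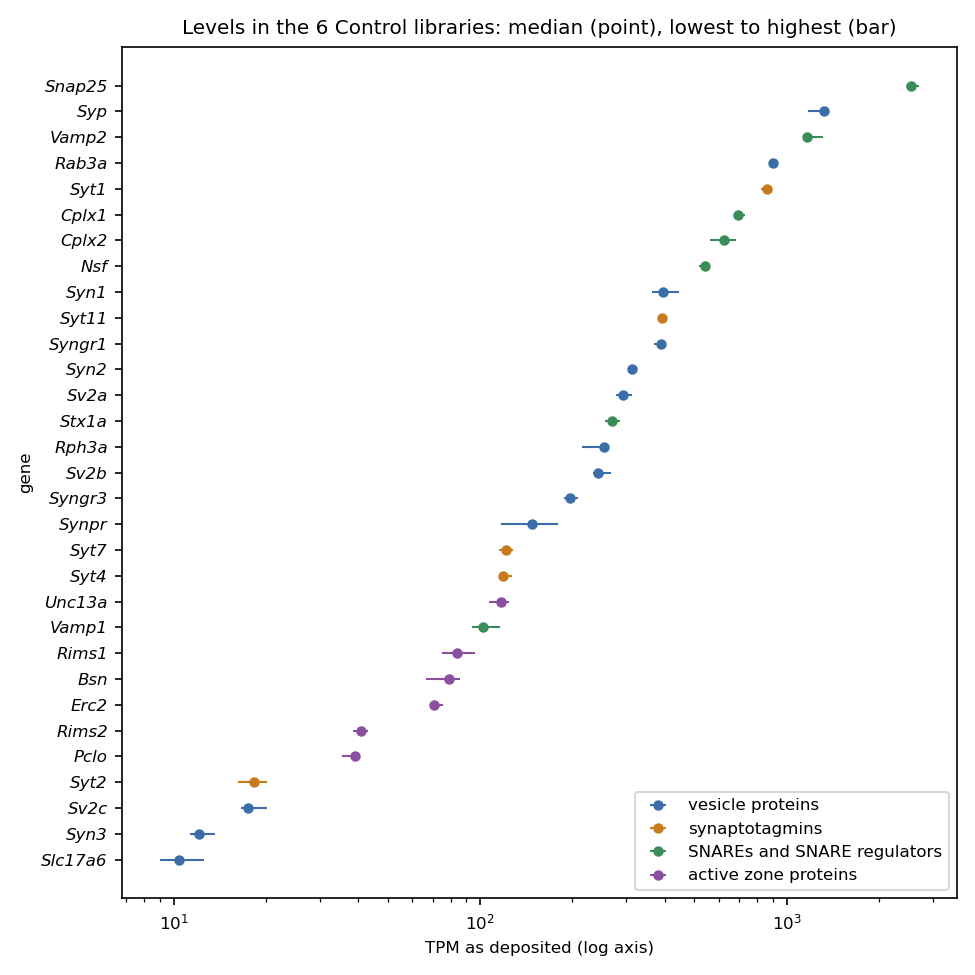
TPM of the 31 genes in the 6 Control libraries on a log axis, with the median as a point and the lowest to highest library as a bar, coloured by role group. Snap25 stands alone at the top with a median of 2547 TPM, active zone genes lie between 38.9 and 117 TPM, and Slc17a6 is lowest at 10.4 TPM.

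The proportions of close relatives varied little over the Control libraries. Syn1 made up 55.9 ± 2.15% of the summed TPM of Syn1 and Syn2 (synapsins, which tether vesicles into clusters), Cplx1 52.4 ± 1.76% of the complexins, Vamp1 8.01 ± 0.792% of Vamp1 and Vamp2, Syt2 2.05 ± 0.194% of Syt1 and Syt2, Rims2 33.0 ± 2.19% of Rims1 and Rims2, and Pclo 33.0 ± 1.60% of Pclo and Bsn (SD, n = 6). In MS_EC12 the share of Cplx1 was 58.3 ± 4.52%, of Pclo 27.2 ± 6.02% and of Rims2 29.3 ± 2.55%, each with a range that overlapped Control (51.3 to 63.1% against 50.4 to 55.2% for Cplx1). In both the Cplx1 and the Pclo pair the spread over MS_EC12 was wider than over Control. These shares were not tested.

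The first comparison asked what maternal separation alone did. None of the 31 genes changed in MS against Control (edgeR quasi-likelihood test, adjusted p = 1 for each), where 0.0326% of the tested genes did. No member reached an unadjusted p under 0.05 either, beside 3.6% of all genes, and DESeq2 called 0. The log2 fold changes lay between −0.07 and 0.14 with a median of 0.00719, beside −0.00574 over all genes. In Syt7, the calcium sensor of slow, asynchronous release and the gene of smallest p, levels were 339 to 361 CPM (median 355) in Control and 312 to 351 CPM (median 342) in MS. The groups overlapped, with 6 of 6 MS libraries below the Control median, and the log2 fold change was −0.07 ± 0.0738 (SE, n = 6; adjusted p = 1). Syn2 stood at 0.06 ± 0.066, Cplx2 at −0.05 ± 0.0701, Syt11 at 0.03 ± 0.0533 and Nsf at 0.03 ± 0.059. These 5 stood at −0.08, 0.05, −0.05, 0.02 and 0.03 in the 17 libraries, in the order Syt7, Syn2, Cplx2, Syt11 and Nsf. The standard error was widest for Sv2c, at 0.247 around a log2 fold change of 0.14.

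EC-12 in mice reared normally gave the same count. None of the 31 changed in Control_EC12 against Control, where 0.0218% of the tested genes did; 1 member had an unadjusted p under 0.05, beside 8.93% of all genes, and DESeq2 called 0. That member was Syt4, which encodes a synaptotagmin found on dense-core vesicles. It had 183 to 203 CPM in Control (median 195) and 108 to 187 CPM in Control_EC12 (median 165). Every Control_EC12 library lay below the Control median and replicate 3 lay farthest down, and the log2 fold change was −0.29 ± 0.133 (adjusted p = 0.53). With the 17 libraries it was −0.18, adjusted p = 0.127. Of the 31 log2 fold changes 24 were below 0, with a median of −0.0546 beside 0.00989 over all genes. All 6 active zone genes and all 5 synaptotagmins were among the 24. Within the 17 libraries Rims1 and Erc2 stood at −0.04, Bsn at −0.06, Rims2 at 0.01, and Pclo and Unc13a at 0. The 5 synaptotagmins stayed below 0 there, Syt2 at −0.19, Syt4 at −0.18, Syt1 and Syt11 at −0.05 and Syt7 at −0.02. Syngr3 had the smallest p of the 31 in the 17 libraries, at −0.17 ± 0.0402 (adjusted p = 0.0711). Over the 24 libraries it stood at −0.01 ± 0.0957.

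Next to Syt4 in p were Cplx2 at −0.14 ± 0.0702, Nsf at −0.11 ± 0.059, Rims1 at −0.18 ± 0.117 and Sv2c at −0.37 ± 0.249 (adjusted p from 0.559 to 0.651). Their values in the 17 libraries were −0.14, −0.11, −0.04 and −0.19. A single library weighed on the last of these. Sv2c, a paralog of the vesicle glycoprotein SV2A, had 30.2 to 34.1 CPM in Control, 25.3 to 30.9 CPM in 5 Control_EC12 libraries and 4.51 CPM (152 reads) in replicate 4. Without that library its log2 fold change was −0.15, and that of Rims1 was −0.10. Replicate 4 was the lowest Control_EC12 library for 12 of the 31 genes, among them Bsn (249.8 against a group median of 489 CPM), Pclo (128 against 273), Rims1 (139 against 214), Unc13a (325 against 419) and Syt7 (259 against 343). Transcripts of these named genes are long (6446 bases for Rims1 to 20084 for Pclo). Of the rest of the 12, Sv2c (9101 bases) and Syt2 (6879) are long as well. Sv2b (5524), Sv2a (4334), Syngr1 (4180), Syn3 (4006) and Nsf (3766) are shorter. The slope of log2 CPM per doubling of transcript length was −0.208 in Control_EC12 replicate 4 and −0.164 to 0.0742 in the other 23 libraries. The part of this slope in the result was not tested.

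The question of reversal sets MS_EC12 beside MS. None of the 31 changed, where 0.163% of the tested genes did. Of the 31, 11 had an unadjusted p under 0.05, beside 31.8% of the tested genes. DESeq2 called 3 of the 31, beside 2088 over all genes. Syt4 had 143 to 221 CPM in MS (median 198) and 92.4 to 182 CPM in MS_EC12 (median 134). All 6 MS_EC12 libraries lay below the MS median, the ranges overlapped through MS replicate 3, and the log2 fold change was −0.51 ± 0.133 (adjusted p = 0.0754). Rims2 stood at −0.44 ± 0.146, Syt1 at −0.26 ± 0.0884, Cplx1 at 0.27 ± 0.0963 and Erc2 at −0.43 ± 0.165 (adjusted p from 0.0866 to 0.104), each with 6 of 6 MS_EC12 libraries on the same side of the MS median.

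Single libraries decided this count: 10 members passed without MS replicate 3, 10 without MS_EC12 replicate 1 and 10 without MS_EC12 replicate 2, and 0 without any other library of these groups. MS replicate 3 has a GC slope above 0 and the other 2 have slopes below 0. Over all tested genes the count also moved, from 30 with every library to 0 without MS replicate 1 and 5037 without MS_EC12 replicate 1. In the 17 libraries Syt4 stood at −0.26, Rims2 at −0.09, Syt1 at −0.10, Cplx1 at 0.02 and Erc2 at −0.06, and no member passed, where 0.0733% of the genes tested in those libraries did.

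Most calls came between MS_EC12 and Control, the groups that differ in both rearing and supplement. Here 3 of the 31 genes were called, all lower in MS_EC12, where 14.1% of the tested genes changed (6.8% lower and 7.31% higher). At 3 of 31, the members' count is near that background. An unadjusted p under 0.05 was reached by 14 members, 8 lower and 6 higher, beside 38.3% of all genes (20.2% lower and 18.1% higher). DESeq2 called 9 of the 31, beside 4560 over all genes. The median log2 fold change of the 31 was −0.00127, beside 0.00745 over all genes.

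Syt4 had the lowest log2 fold change of the 31. Its 183 to 203 CPM in Control compare with 92.4 to 182 CPM in MS_EC12 (median 134), so that every MS_EC12 library lay below every Control library. The log2 fold change was −0.52 ± 0.133 (SE, n = 6; adjusted p = 0.0302). Within MS_EC12 the 2 libraries of GC slope below 0 were the highest, and the values of the 7 libraries of slope above 0, over all groups, were 92.4 to 160.1 CPM against 161 to 221 CPM in the other 17. In those 17 Syt4 stood at −0.19 ± 0.0649 (adjusted p = 0.192).

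Syt1, the fast calcium sensor that triggers synchronous release in forebrain neurons, had 1615 to 1801 CPM in Control (median 1696) and 1126 to 1603 CPM in MS_EC12 (median 1379.8). These ranges did not overlap, although only 1615 and 1603 CPM part them. The log2 fold change was −0.30 ± 0.0885 (adjusted p = 0.0386), and −0.10 ± 0.0832 in the 17 libraries (adjusted p = 0.668). Part of its span is shared with the predicted gene Gm5136, and reads of overlapping genes may not have been told apart.

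Rims2, which encodes an active zone scaffold that recruits calcium channels and Munc13, had 104 to 113 CPM in Control (median 109) and 55.1 to 109 CPM in MS_EC12 (median 75.1). The ranges overlapped through MS_EC12 replicates 1 and 2, at 106 and 109 CPM, while the other 4 libraries of the group reached at most 78.6 CPM. The log2 fold change was −0.43 ± 0.146 with adjusted p = 0.0495, just past the threshold. It was −0.01 ± 0.0574 in the 17 libraries (adjusted p = 0.944), where no member was called and 1.01% of the genes tested there were.

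All 3 calls ended in several settings. With GC slope as a covariate Syt4 stood at −0.19 ± 0.0596, Syt1 at −0.12 ± 0.066 and Rims2 at −0.07 ± 0.0518 (adjusted p from 0.216 to 0.655), and no member was called, where 0.218% of all genes were. No member was called without any 1 of the 6 Control libraries or without MS_EC12 replicate 3, 4 or 6. Without MS_EC12 replicate 5 there was 1 call, and without replicate 1 or 2 there were 12. The count over all genes moved too, from 2594 with every library to 9 without Control replicate 5 and 6544 without MS_EC12 replicate 1. Pan-neuronal marker genes, 15 of 15 measured, summed to 8174 to 8879.6 CPM in Control and 7477 to 8978 CPM in MS_EC12 (medians 8517 and 7644); 2 of them were called lower in MS_EC12 and none higher, beside 6.8% and 7.31% of all genes. Markers of other cells were called too: 3 of 12 for excitatory cortical neurons were lower, 4 of 10 for microglia and 4 of 5 for blood were higher, and of 10 for astrocytes 3 were higher and 2 lower. Excitatory neuron markers summed to 5050 to 6269 CPM in Control and 5495 to 7164 CPM in MS_EC12 (medians 5956 and 6739). The median of this sum was thus higher in MS_EC12, although the 3 called genes were lower. Microglial markers summed to 379 to 459.7 CPM in Control and 415 to 574 CPM in MS_EC12, and blood markers to 205 to 289.6 and 229 to 599 CPM. The part of these markers in the results was not tested.

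**Figure D3:**
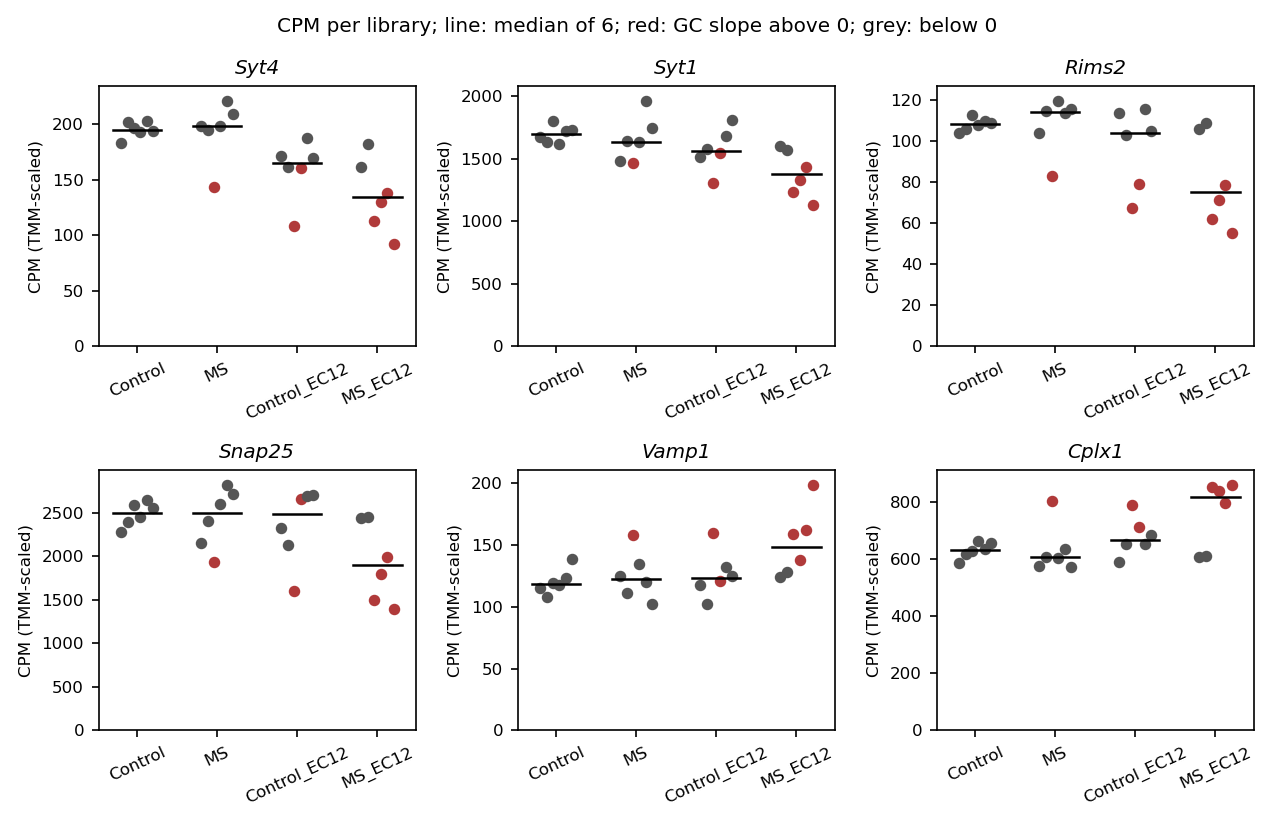
CPM in each library for the 3 genes called lower in MS_EC12 than in Control (Syt4, Syt1, Rims2) and 3 SNARE or complexin genes that were not called, with a line at each group median and libraries of GC slope above 0 in red. In MS_EC12 the 4 red libraries of Rims2 reach at most 78.6 CPM and the 2 grey ones stand at 106 and 109 CPM, and for Cplx1 the order is the opposite.

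Each role group held genes of both signs in MS_EC12 against Control, and roles were not tested against each other. Of the 7 SNAREs and SNARE regulators 4 were above 0 and 3 below, with a median log2 fold change of 0.232; 5 had an unadjusted p under 0.05 (38.3% of all genes did) and none was called. Vamp1, the vesicle SNARE of fast-spiking and brainstem neurons, had 108 to 139 CPM in Control (median 119) and 124 to 199 CPM in MS_EC12 (median 148). Each MS_EC12 library lay above the Control median, the ranges overlapped, and the log2 fold change was 0.33 ± 0.116 (adjusted p = 0.0538). Cplx1 had 585 to 664 CPM in Control and 608 to 860.3 CPM in MS_EC12 (medians 631 and 819), a log2 fold change of 0.27 ± 0.0963 (adjusted p = 0.0554). Its 4 libraries of slope above 0 were all above every Control library and the other 2 were within the Control range.

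Among the partners that form the fusion complex, signs were opposite. Snap25 had 2279 to 2638 CPM in Control and 1390.2 to 2443 CPM in MS_EC12 (medians 2499.8 and 1892), a log2 fold change of −0.37 ± 0.136 (adjusted p = 0.0619). Vamp2 had 989 to 1204 CPM in Control and 1067 to 1479 CPM in MS_EC12 (medians 1048 and 1284), at 0.24 ± 0.0958 (adjusted p = 0.0796), and Stx1a, the syntaxin of the plasma membrane, stood at 0.23 ± 0.101 (adjusted p = 0.098). All 3 overlapped between the groups. Within the 17 libraries Snap25 stood at −0.02, Vamp2 at 0.00, Stx1a at −0.04, Vamp1 at 0.07 and Cplx1 at −0.05. Cplx2 (−0.09 ± 0.0701) and Nsf (−0.06 ± 0.059) differed little from Control in the 24-library comparison.

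Active zone genes had the lowest median, −0.338, with 5 of 6 below 0, 4 at an unadjusted p under 0.05 and 1, Rims2, called. Erc2, which encodes the scaffold CAST, had 165 to 179.9 CPM in Control and 88.2 to 177 CPM in MS_EC12 (medians 175 and 115), at −0.44 ± 0.165 (adjusted p = 0.0613). Pclo, a very large scaffold protein called piccolo, had 257 to 297 CPM in Control and 154 to 259.9 CPM in MS_EC12 (medians 287 and 204), at −0.43 ± 0.153 (adjusted p = 0.0571). Its relative Bsn, which encodes the similarly built scaffold bassoon, stood at 0.00 ± 0.146 (adjusted p = 0.996). GC content was 45.4% in Pclo and 59.8% in Bsn. Over the 17 libraries Pclo stood at −0.15 ± 0.0953 and Bsn at −0.26 ± 0.119 (adjusted p = 0.516 and 0.354), while Erc2 turned to 0.02 ± 0.0684 and Rims1 stood at −0.02 ± 0.0977 (adjusted p = 0.94 and 0.947). Rims1 (−0.25 ± 0.117) lay below 0 and Unc13a (0.03 ± 0.0822) near it, and neither was called.

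Vesicle proteins were split, with 8 of 13 above 0, a median of 0.0917 and none called. Syp stood at 0.19 ± 0.0887, Rph3a (rabphilin, which binds Rab3A) at 0.20 ± 0.0979, Syngr1 at 0.18 ± 0.0889 and Rab3a at 0.18 ± 0.093 (adjusted p from 0.113 to 0.154). Below 0 lay Sv2b (−0.26 ± 0.107, adjusted p = 0.0795), Sv2c (−0.33 ± 0.248), Slc17a6 (−0.32 ± 0.156), Syn3 (−0.23 ± 0.119) and Synpr (−0.07 ± 0.153). Sv2a, the most widespread SV2 gene and the binding site of the drug levetiracetam, stood at 0.16 ± 0.101, opposite in sign to its relatives Sv2b and Sv2c, and none of the 3 passed. All 3 were below 0 in the 17 libraries (Sv2a −0.16, Sv2b −0.03, Sv2c −0.21) and with GC slope as a covariate (−0.07, −0.07 and −0.25). Of the 13, 10 were below 0 in the 17 libraries, with a median of −0.0637. Synaptotagmins had a median of −0.0334, and beside Syt1 and Syt4 there were Syt2 at 0.21 ± 0.182, Syt7 at 0.05 ± 0.0738 and Syt11 at −0.03 ± 0.0533. Syt2 and Vamp1 are used by parvalbumin interneurons, whose 11 markers summed to 1367 to 1526 CPM in Control and to 1356 to 1459 CPM in MS_EC12, all measured in every library. Within that list 1 gene was called higher and 1 lower, with log2 fold changes from −0.68 to 0.61.

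**Figure D4:**
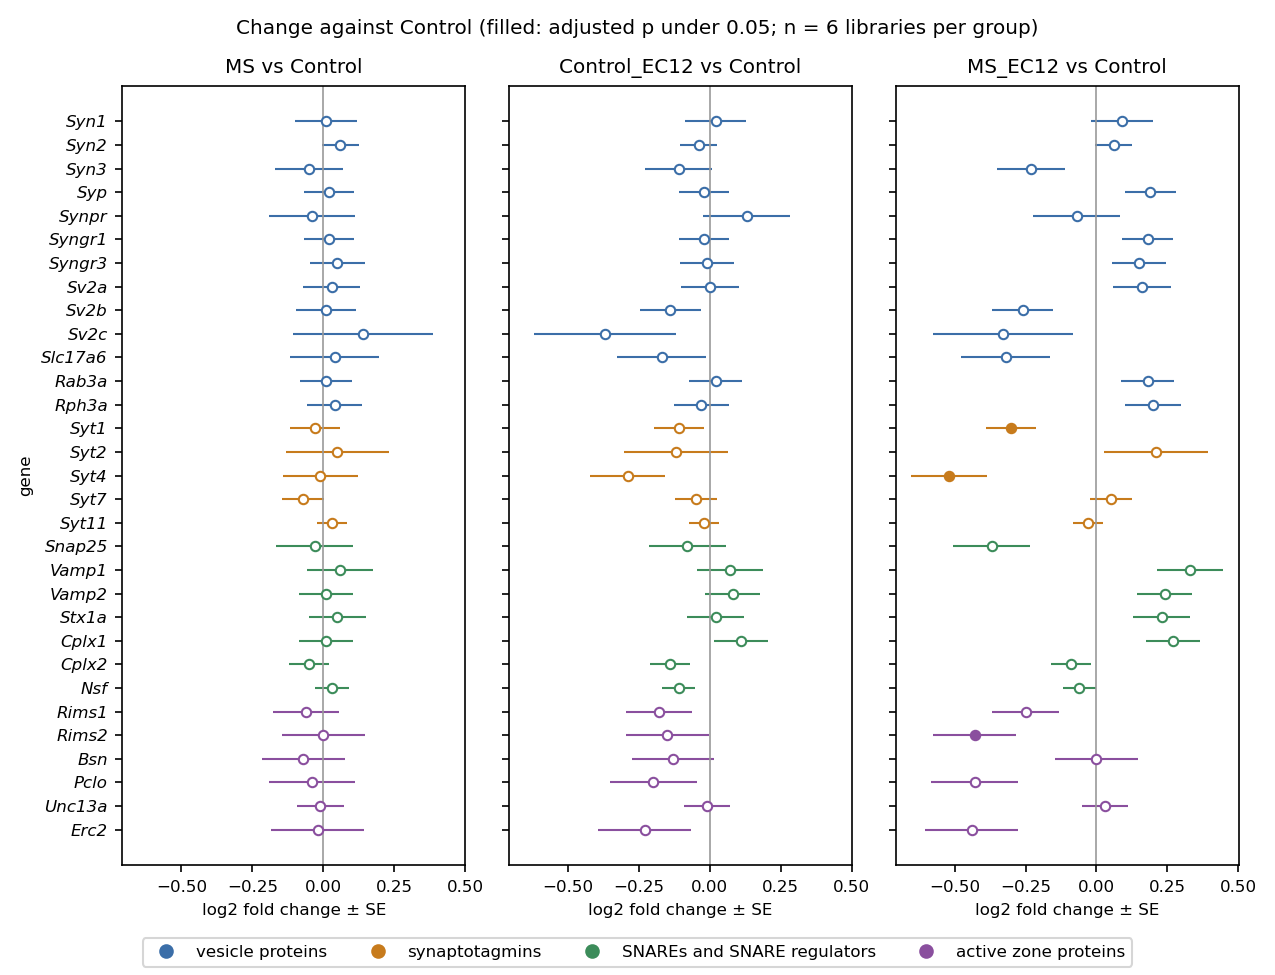
Log2 fold change with its standard error for the 31 genes in MS, Control_EC12 and MS_EC12, each against the same 6 Control libraries, coloured by role group and filled where the adjusted p was under 0.05. Values lie within 0.14 of 0 for MS, and Syt4, Syt1 and Rims2 are the filled points in the right panel.

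The differences also divided by GC content. Of the 15 genes of GC content below the members' median of 51.6%, 14 were below 0 in MS_EC12 against Control and 3 were called, with a median log2 fold change of −0.295. Of the 16 at or above it, 14 were above 0 and none was called, with a median of 0.181. Across the 31 genes Pearson's r between GC content and log2 fold change was 0.79, and it was 0.56 across the 17019 tested genes with a known GC content. Genes of 1 library share its depth and base composition and are not independent, so these values are descriptions. Restricted to the 17 libraries, r across the 31 genes was −0.25, 26 of the 31 log2 fold changes were below 0, and the role medians were −0.0637 for vesicle proteins, −0.0974 for synaptotagmins, −0.0432 for SNAREs and −0.0621 for active zone proteins. Over the 24 libraries the same medians ran from −0.338 to 0.232. In MS against Control, where both groups have a mean slope below 0, r was 0.14 over the 24 libraries and −0.62 over the 17. Among the 17, every MS and MS_EC12 library had a lower GC slope than every Control library. Estimates from the 17 libraries are therefore not free of a GC difference between groups.

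**Figure D5:**
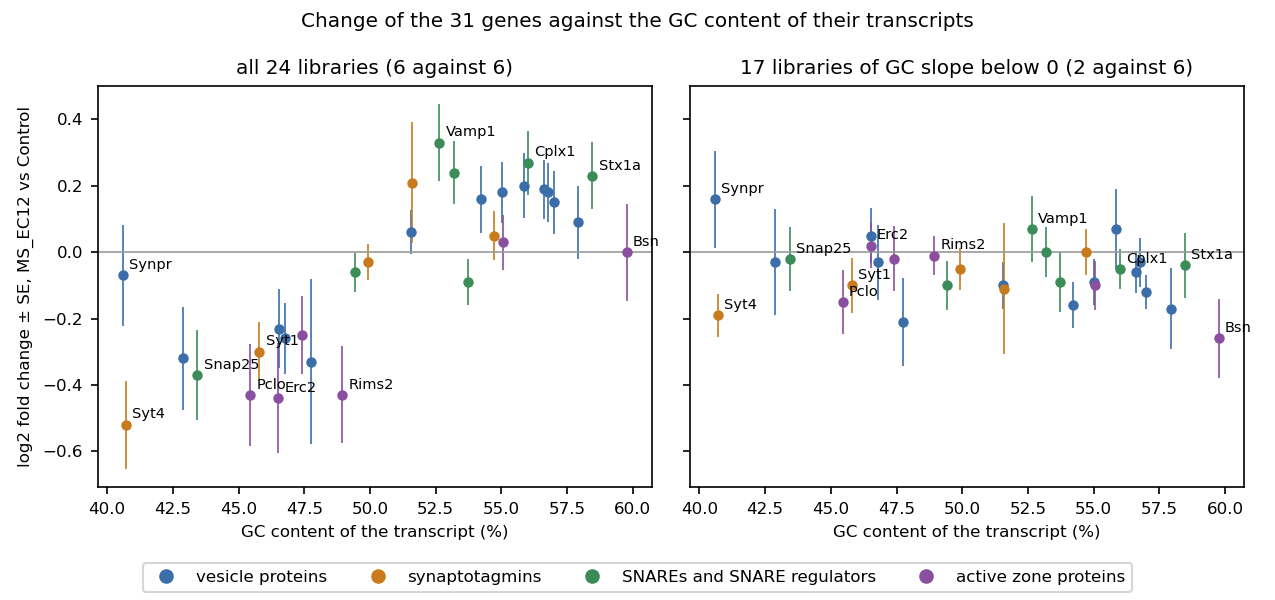
Log2 fold change of MS_EC12 against Control with its standard error, plotted for the 31 genes against the GC content of their longest protein-coding transcript, in all 24 libraries (left, 6 against 6) and in the 17 libraries of GC slope below 0 (right, 2 against 6). Points rise from left to right in the first panel (r = 0.79) and do not in the second (r = −0.25).

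Against Control_EC12, MS_EC12 showed no called gene among the 31, where 0.261% of the tested genes changed; 7 had an unadjusted p under 0.05 (15.9% of all genes) and DESeq2 called 0. Syp had 1155 to 1600 CPM in Control_EC12 and 1254 to 1793 CPM in MS_EC12 (medians 1268 and 1563), which overlapped, and stood at 0.21 ± 0.0887 (adjusted p = 0.288). Rph3a (0.23 ± 0.0979), Syngr1 (0.21 ± 0.089), Vamp1 (0.26 ± 0.116) and Stx1a (0.21 ± 0.101) followed, and the other 2 at that p lay below 0, Syt1 (−0.19 ± 0.0884) and Snap25 (−0.29 ± 0.136). All 16 genes at or above the median GC content were above 0 in this comparison. In the 17 libraries the 31 genes had a median of 0.0139 and none an unadjusted p under 0.05.

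Whether EC-12 acted differently on the release genes after maternal separation was tested as the interaction of rearing and supplement. No member passed (adjusted p from 0.83 to 0.992), where 0.0109% of the tested genes did, 0 had an unadjusted p under 0.05, beside 4.8% of all genes, and DESeq2 called 0. Syt7 had the smallest p, with an interaction of 0.18 ± 0.104 on the log2 scale, and Syngr1 (0.19 ± 0.126), Syp (0.19 ± 0.125), Rims2 (−0.28 ± 0.206) and Rph3a (0.19 ± 0.138) came next. An effect of EC-12 that depends on rearing was thus not detected for any of these genes, and the estimates carry standard errors of 0.104 to 0.206 for these 5 genes and of 0.351 for Sv2c. Over the 17 libraries the same 5 interactions were 0.09, 0.05, 0.08, −0.10 and 0.15.

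Other genes of the release cycle were taken from 5 lists with 115 genes, all tested. None passed in MS or in Control_EC12 against Control, with 0 and 7 at an unadjusted p under 0.05, beside 3.6% and 8.93% of all genes. Against MS, 1 of the 115 was called in MS_EC12, beside 0.163% of all tested genes. It was Syngr2, the relative of Syngr1 that is widespread outside neurons, at 0.58 ± 0.113 (adjusted p = 0.036). Against Control, 23 of the 115 were called in MS_EC12, 9 higher and 14 lower, beside 14.1% of all tested genes. None of the 115 was called in the 17 libraries for either comparison.

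Against Control, MS_EC12 had 2 of 46 other exocytosis genes higher and 8 lower. Syt16 stood at −0.36 ± 0.0886, Snap29 at −0.38 ± 0.0982 and Rab3gap1, part of a regulator of Rab3, at −0.29 ± 0.0833, and Syt12 was higher at 0.37 ± 0.096 (adjusted p from 0.0272 to 0.0366). Of 15 other vesicle proteins, Syngr2 was called higher (0.48 ± 0.113, adjusted p = 0.0244). Of 10 genes for presynaptic calcium channels 2 were lower, the auxiliary subunit genes Cacna2d3 (−0.54 ± 0.152) and Cacna2d1 (−0.57 ± 0.192; adjusted p = 0.0354 and 0.0492), and none was higher. Among 28 genes of vesicle endocytosis 3 were higher and 4 lower. The adaptor gene Ap2s1 stood at 0.37 and the clathrin light chain genes Cltb and Clta at 0.31 and 0.29. Lower were the clathrin heavy chain gene Cltc at −0.55, Itsn2 at −0.64, Picalm at −0.29 and Dnm3 at −0.27 (adjusted p from 0.0352 to 0.0496 for these genes of both signs). Of 16 genes of the vesicle proton pump, which fills vesicles, 3 were called higher and none lower, beside 7.31% and 6.8% of all genes. The 3 were Atp6v1g1 (0.27 ± 0.07), Atp6v1f (0.32 ± 0.102) and Atp6v0b (0.34 ± 0.108). Next in p was Atp6v1a, below 0 at −0.35 ± 0.123 and just short of a call (adjusted p = 0.0528).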

How the data were processed

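RNA-seq was analysed for 24 prefrontal cortex libraries in 4 groups of 6, taken with their replicate numbers from the titles. RNA extraction used ISOGEN II, and library preparation a kit for stranded mRNA, per the labels' protocols. The submitters' processing notes name the build mm10 and the tools HISAT2 2.1.0, StringTie 2.1.3b, Trimmomatic 0.38, FastQC 0.11.7 and DESeq2. No source used here gives their roles or the strand setting of the counting. The deposited table gives whole-number read counts per gene, left unnormalized by the authors. It also gives TPM values, and FPKM values that enter no result, both made by the authors per the file headers.

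Counts were filtered with filterByExpr (minimum count 10, minimum total 15) and all 24 libraries entered 1 model with a coefficient for each group, tested by quasi-likelihood F in edgeR 4.0.16 (R 4.3.3) after TMM scaling. Adjustment (Benjamini-Hochberg) ran over 18380 genes, all tests were 2-sided, and a gene with adjusted p under 0.05 was called. CPM values are TMM-scaled, with a prior count of 2 on the log scale. The standard error of a log2 fold change is its size divided by the square root of F. Deposited TPM values were used to compare genes with one another. The fit was tested on simulated counts that carried no GC or length slope between libraries. That test therefore does not cover the effect of such slopes on the calls. A check for libraries deposited more than once found none (lowest chi-square for each gene 5.14). GC content and length came from the longest protein-coding GENCODE M21 transcript, known for 92.6% of tested genes. With 6 libraries against 6, the smallest p of an exact permutation test is 0.00216. The slope on transcript length was added after seeing the data.

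Syn1 overlaps Araf and Timp1, Syn2 Timp4, Syn3 Fbxo7 and Timp3, Syt1 Gm5136, and Unc13a Colgalt1, so their counts are less certain. All members could be named, along with up to 4 genes per other list and comparison, those called first and then by smallest p. For vesicle endocytosis in MS_EC12 against Control, every called gene was named. A member was described in full where called or among the 5 of smallest p, and further members were named for their role. Members, lists and tests were chosen with earlier results of these data known. Alternatives were other scaling (RLE), DESeq2 1.42.0, no filter, only the groups compared, a replicate block, the 17 libraries of GC slope below 0, GC slope as a covariate (with and without the block), limma 3.58.1 on log2(TPM + 1) and log2(TPM + 0.1) of genes over 0.5 TPM in 6 libraries, and each library left out.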

Additional observations from a re-analysis of the deposited data

Results flagged for a closer look

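Within groups of 6, 7 of 124 sets of values (31 genes in 4 groups) had a library whose gap to the nearest other exceeded Dixon's 95% critical value as a share of the range. Chance flags about 1 in 20. In MS, replicate 3 stood apart for Syngr3 (187 CPM, others 153 to 166), Cplx1 (804 CPM, others 573 to 634) and Syt4 (143 CPM, others 195 to 221). Its GC slope is the only one above 0 in that group. In Control_EC12, replicate 3 stood apart for Syt4 (108 CPM, others 160.1 to 187) and Slc17a6 (10.5 CPM, others 16.2 to 19.5), and its GC slope of 0.438 is the highest of the group. Replicate 4 of Control_EC12 stood apart for Sv2c (4.51 CPM, others 25.3 to 30.9), and its slope on transcript length of −0.208 is the lowest of all libraries. In MS, replicate 1 stood apart for Slc17a6 (29.8 CPM, others 14.5 to 20.2). The same library had the highest summed level of the hypothalamus and septum markers in its group, 128 CPM against 67.9 to 107 in the other 5.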

How the results depend on the processing

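The call of 3 members in MS_EC12 against Control stayed at 3 with RLE scaling and was 4 with only the groups compared. It was 9 with DESeq2, 1 without the filter, 9 with limma on TPM at either pseudocount, and 0 in the 17 libraries, with GC slope as a covariate, and with that covariate and the replicate block together. In MS_EC12 against MS, 0 members became 3 with DESeq2 and 1 with limma on TPM at either pseudocount. Leaving out each library in turn gave 0 to 12 members against Control and 0 to 10 against MS. No member was called in any of these settings in the other 4 comparisons. Cplx1, MS_EC12 vs Control, turned to −0.05 in the 17 libraries. Erc2, MS_EC12 vs MS, turned to 0.03 with the covariate and replicate block, and Nsf, MS vs Control, to −0.01 without MS replicate 5 (range −0.01 to 0.06). The GC slope difference of MS from Control turned to −0.0575 without MS replicate 3 (range −0.0575 to 0.0378).
The count of all genes called in MS_EC12 vs Control, 2594, was 4560 with DESeq2, 339 without the filter, 5939 with the replicate block, 193 in the 17 libraries, 40 with the covariate, 3 with both, 4027 and 4040 with limma on TPM, and 9 to 6544 with libraries left out. In MS_EC12 vs MS, 30 became 2088 with DESeq2, 1 without the filter, 0 with only the groups compared, 3809 with the replicate block, 14 in the 17 libraries, 3 with the covariate, 2 with both, 166 and 154 with limma, and 0 to 5037 with libraries left out. In the other 4 comparisons the counts stayed between 0 and 232 in these settings. The causes were not tested. The interaction uses all 4 groups, so it has no value with only the groups compared.
No label says that the replicate numbers pair the libraries, and the main fit did not use them. Same-numbered libraries of different groups correlated at a mean of 0.0887 over 36 pairs (−0.3 to 0.575), 13 of them above 0.1. The mean was −0.0181 over 180 pairs of other numbers, and 5 of 24 libraries correlated best with their own number. With the replicate block 14 members were called in MS_EC12 against Control, beside 5939 over all genes, and 8 against MS, beside 3809.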
